A study of Mus musculus with 9 samples.

Results

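The genes described here encode the nuclear-made subunits of the mitochondrial respiratory chain and of ATP synthase, with a few of their assembly factors. They were taken by name: every protein coding gene whose symbol starts with Nduf (complex I), Sdha, Sdhb, Sdhc or Sdhd (complex II), Uqcr (complex III), Cox4 to Cox8 (complex IV) or Atp5 (complex V, the ATP synthase). This gave 82 genes with 298 Argonaute-bound regions, of 13770 genes with 92645 regions in all. By role the genes were 7 core and 27 accessory subunits of complex I, 4 subunits of complex II, 8 of complex III, 12 of complex IV, 14 of complex V and 10 assembly factors or other genes caught by the name rule. The name rule uses no measured value, but the group was picked with earlier results of these data known.

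Argonaute (AGO) CLIP-seq, which counts RNA fragments that ultraviolet light crosslinked to AGO proteins, was made from the livers of 9 mice aged 6 weeks. The 5 controls were littermates carrying floxed alleles (libraries 1 to 3 from females, 4 and 5 from males), and the 4 knockout mice (KO) lacked miR-122 (library 1 from a female, 2 to 4 from males). How and in which cells miR-122 was deleted is not stated in the labels used. The labels give each library its own mouse, and the comparison asks how AGO occupancy on these mRNAs differs between livers with and without miR-122.

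A microRNA guides AGO to mRNAs that pair with its seed, the bases near its 5′ end, and the bound mRNA is then usually degraded or translated less. miR-122 is the main microRNA of hepatocytes. The respiratory chain passes electrons from NADH and succinate through complexes I to IV to oxygen, and ATP synthase uses the resulting proton gradient to make ATP; hepatocytes are rich in mitochondria and express these genes at high levels. A CLIP count rises with the amount of the mRNA as well as with how often AGO binds it, and RNA-seq was not analysed here, so the mRNA's level and its binding cannot be told apart. In bulk liver, fewer cells of a type and less RNA per cell cannot be told apart either.

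The deposited table names, for each region, the microRNA families whose seed it can pair with. The mature sequences below are those of some, not all, of the families other than miR-122 whose matches lay in the member regions described later. All are mouse sequences from RefSeq (GRCm38.p6), printed 5′ to 3′ with bases 2 to 8, the seed, in capitals.
miR-148a-3p: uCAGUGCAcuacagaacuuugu
miR-130a-3p: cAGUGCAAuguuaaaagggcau
miR-29a-3p: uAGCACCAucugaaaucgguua
let-7a-5p: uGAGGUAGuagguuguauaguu
miR-26a-5p: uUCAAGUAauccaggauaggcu
miR-27a-3p: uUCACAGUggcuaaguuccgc
The seeds of miR-148a and miR-130a overlap, shifted by a single base, so a region can pair with both. The other seeds shown are unlike each other.

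The libraries held 445912 to 1170130 counts over all regions. Levels are given as scaled CPM, that is CPM with the library totals corrected by edgeR's TMM factors. They are sums over regions and are not corrected for length, so a gene's level is set only against its own level in other libraries. The miR-122 locus itself gave 325 to 642 scaled CPM in controls and 2.69 to 46.7 in KO livers, without overlap. Counts from the 23 neuronal marker genes summed to 59.4 to 70.0 scaled CPM in controls, where 8 of the 23 were at 0 in every library, and to 2088, 2316, 2676 and 11430 in KO libraries 1 to 4; all 17 of these genes that could be tested rose. The 12 hepatocyte markers summed to 28030 to 38030 in controls and 17280 to 21300 in KO, with 9 of 12 lower and 2 higher. Stellate cell markers rose (5 of 8 tested; sums of 651 to 808 and 1383 to 1831), as did macrophage markers (6 of 10 tested; 452 to 545 and 691 to 954) and the 1 tested cholangiocyte marker of 3 in the file (sums of 12.9 to 39.9 and 67.2 to 104.2), whereas 0 of the 7 endothelial markers passed by edgeR or DESeq2 (1 at an unadjusted p). Muscle markers varied widely between libraries, with sums of 4.30 to 656 in controls and 10.8 to 201 in KO, and 0 of the 3 tested passed. Neuronal, hepatocyte, stellate, macrophage and cholangiocyte marker levels moved with genotype in the same libraries as every result below. The part of these and of the muscle markers in those results was not tested.

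The respiratory chain genes as a group took a smaller share of all counts in KO livers. It was 0.746%, 0.841%, 0.780%, 0.782% and 0.733% in control libraries 1 to 5 and 0.326%, 0.285%, 0.273% and 0.216% in KO libraries 1 to 4. Each KO value lay below each control value, within females and within males as well. In scaled CPM the members summed to 7925 ± 604 (SD, n = 5) in controls and 2659 ± 216 (n = 4) in KO, a 2.98-fold difference. When only the 261 regions with no miR-122 match of any kind were summed, the values were 3828 ± 300.7 and 2371 ± 146, a 1.61-fold difference.

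Subunits of ATP synthase made the largest part of this difference. Their sum was 4359 ± 423 scaled CPM in controls and 868.8 ± 90.5 in KO (5.02-fold). Atp5a1, the catalytic-head alpha subunit, and Atp5g3, a gene for the membrane ring subunit c, together made 41.1 to 47.1% of the members' level in controls and 11.7 to 14.3% in KO. The other 80 members summed to 4497 ± 364 and 2315 ± 164 (1.94-fold). The sums of the other complexes differed less. They differed by 2.78-fold for complex III, 2.12-fold for complex II and 1.67-fold for complex IV. In complex I the core subunits differed by 2.26-fold and the accessory subunits by 1.64-fold. The assembly factors and other genes differed by 1.32-fold, with sums of 113.8 ± 15.3 and 86.3 ± 10.95. In all 7 groups except the last the highest KO sum lay below the lowest control sum. Taken gene by gene, the order of the complexes was not the same. The median log2 difference of the tested genes was -0.71 in complex V and -0.78, -0.81 and -0.83 in complexes IV, III and II. It was -1.41 for the core and -0.49 for the accessory subunits of complex I.

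**Figure D1:**
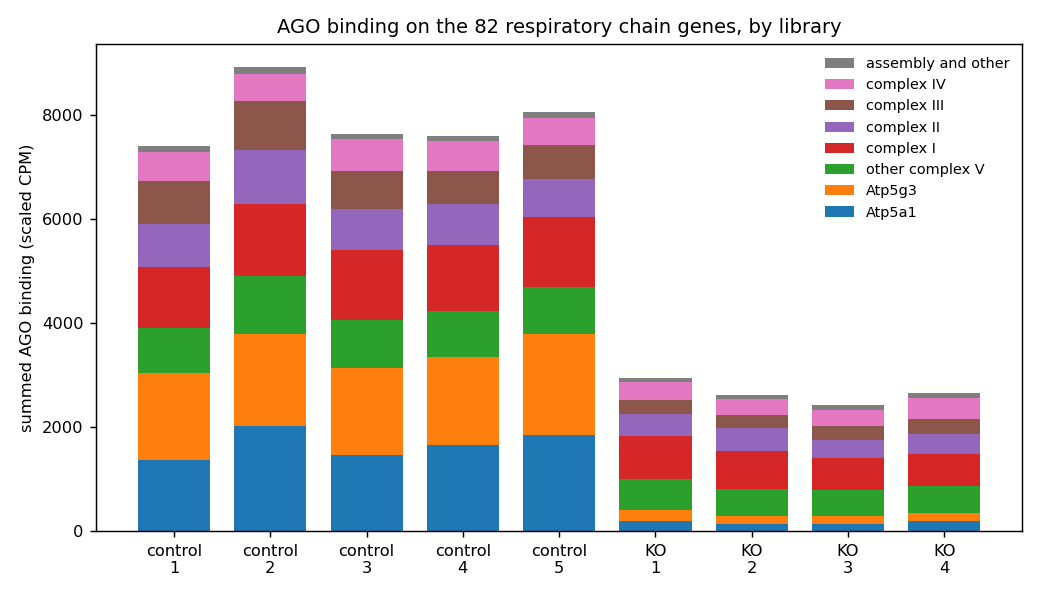
Summed level of the 82 genes in each library (scaled CPM, stacked by complex; 5 controls and 4 KO). Control columns reach 7409 to 8917 and KO columns 2422 to 2945, and the complex V part shrinks most.

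Gene by gene, 58 of the 82 members had enough counts for the edgeR quasi-likelihood test with sex as a second term. 28 of the 58 were lower in KO and 0 were higher (adjusted p under 0.05), where among all genes tested 23.3% were lower and 21.9% were higher. In 27 of the 58 every KO library lay below every control and in 1, Sdhaf2, every KO library lay above (20.4% and 20% of all genes). The median log2 difference was -0.79 over the tested members, -0.76 over the 12 hepatocyte markers and 0.07 over all tested genes. DESeq2 called 29 lower and 0 higher, and at an unadjusted edgeR p under 0.05 the counts were 31 and 0. The count filter could favour genes that are high in controls, so the members were also split by it. Of the 34 that reached the filter in both groups separately, 19 were lower (22.3% of all such genes), and of the 18 that reached it in controls alone, 9 were, beside 744 of 1325 among all genes that did so. With no filter, all 82 could be fitted and 31 were lower, 0 higher and the median -0.50 (17.1% and 18.2% of all genes; 33 and 1 at an unadjusted p). The 24 members that were not tested had 7 to 89 counts over the 9 libraries; 11 of them are accessory subunits of complex I. Among these low-count genes Ndufab1 and Ndufb4 had every KO library below every control and Cox7a2l had every KO library above. Without KO library 4, the one with the most neuronal counts, Cox7a2l passed the filter and was the 1 member called higher, beside 29 lower.

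Of the 18 members with a region matching miR-122-5p, 16 were tested and 14 were lower (37.1% among all such genes). Of the 42 tested members without such a region 14 were lower, where 11% of all genes without a region were lower and 29.4% were higher. Their median log2 difference was -0.40, against 0.36 over all genes of that kind. The median of the 16 tested members with such a region was -1.41. A median of all genes with a region is not given here, and over all tested genes it was 0.07. No test was made of these gaps, because the gene list was chosen with results of these data known.

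The same point was examined by leaving out every region with a miR-122-5p match, in all genes, before summing. Then 56 members were tested and edgeR called 29 lower and 0 higher, with a median of -0.77 (16.8% lower and 17.1% higher of all genes, median 0.04). DESeq2 called 26 and 0, and 37 and 0 passed at an unadjusted edgeR p under 0.05. For the 12 hepatocyte markers edgeR called 7 lower and 1 higher, with a median of -0.72. In 20 of the 56 every KO library was below every control and in 1 above (10.9% and 25.1% of all genes). The count of lower genes was 19 without control library 3, 19 without control library 5 and 31 without KO library 4. In this version the scale itself moved. Genes with no miR-122-5p region had a median of 0.36 with all regions and 0.09 without the miR-122-5p regions. A member without such a region thus lay lower by about that gap in the second fit. Log2 differences of every member in that fit are on the moved scale, whereas levels in scaled CPM stay on the first fit's scale. They can therefore show larger falls than the levels beside them. 21 members were lower in both fits. The 7 lower only with all regions were Atp5c1, Atp5j2, Atp5s, Cox4i1, Ndufa12, Ndufa5 and Sdhaf1, each of which carries a miR-122-5p region. The 8 lower only without them were Atp5d, Atp5e, Atp5f1, Atp5h, Atp5o, Ndufb7, Ndufv2 and Sdhb. Of these only Atp5h has a miR-122-5p region. The counts of the others were the same in both fits, so their calls changed with the scale and fit. Leaving out the matches that the table names miR-122-5p-B and miR-122-3p as well left 53 tested, of which 26 were lower and 0 higher by edgeR (12.9% and 18.2% of all genes; 33 and 0 at an unadjusted p); 19 members were lower in all 3 fits. The sources used here do not say what the suffix B stands for.

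**Figure D2:**
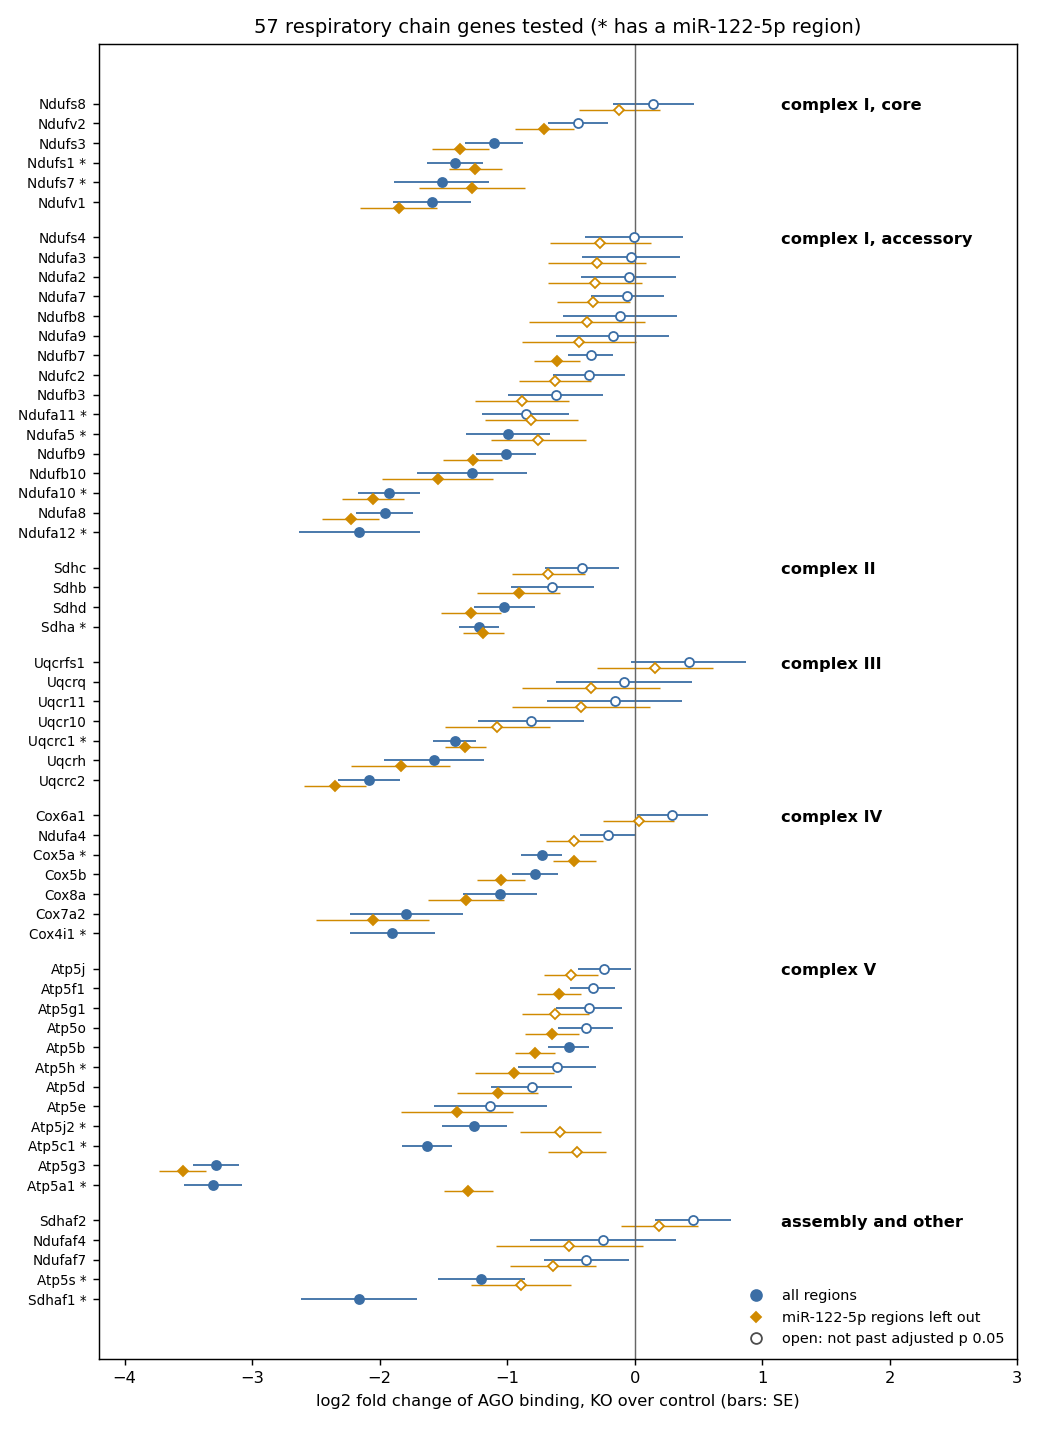
Log2 difference, KO minus control, of 57 tested members from sums over all regions and from sums without miR-122-5p regions, ordered within each complex; open symbols did not pass the adjusted p threshold and an asterisk marks a gene with a miR-122-5p region. Filled symbols all lie below 0: 27 genes in the first fit and 28 in the second.

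In complex I, the NADH dehydrogenase, 5 of the 7 tested core subunits were lower in KO (23.3% of all genes). Without miR-122-5p regions 6 of 7 were lower (16.8% of all genes). Ndufs1, the large iron-sulfur subunit, gave 168, 112, 122.2, 158 and 133 scaled CPM in controls 1 to 5 and 72.8, 45.7, 41.5 and 40.1 in KO 1 to 4. Every KO value was under the lowest control, and the log2 difference was -1.41 (SE 0.22, adjusted p = 0.00031). Part of this came from a miR-122-5p 7mer region in its coding sequence (chromosome 1, 63151633 to 63151702, mm10), at 36.0 ± 15.8 in controls and 2.23 ± 2.15 in KO, which overlaps the gene Ino80dos. With that region left out Ndufs1 still fell by 1.25 on the log2 scale. The core subunits Ndufs3, Ndufs7 and Ndufv1 also fell, by 1.10, 1.51 and 1.59 on the log2 scale. Ndufs8 did not pass, at 14.5 ± 2.64 and 15.01 ± 4.39 scaled CPM.

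Ndufv2, a flavoprotein-module core subunit, overlapped between groups: 89.6, 185, 119, 112 and 93.1 scaled CPM in controls and 108, 84.2, 67.2 and 54.1 in KO. Ndufv2 has no miR-122-5p region, so its counts were the same in both fits. It did not pass with all regions (log2 -0.44, adjusted p = 0.15) and was lower without miR-122-5p regions (log2 -0.71, adjusted p = 0.033). That call was lost without control 3, 4 or 5, or without KO 1 or 3 (adjusted p of 0.063 to 0.20) and with library totals as the scale. Its 5 regions did not move alike. A 5′ UTR region at chromosome 17, 66089426 to 66089495, with no listed match fell from 81 counts over the controls to 3 over the KO libraries, a ratio of 25.4 (95% interval 8.39 to 126, exact Clopper-Pearson, counting error only; log2 -4.38 in the region fit, adjusted p = 2.4e-05). The neighbouring 5′ UTR region at 66089262 to 66089331 was at 52.9 and 45.5 scaled CPM and did not pass (log2 -0.08).

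Of the accessory subunits of complex I, which surround the core, 6 of 16 tested were lower (23.3% of all genes). Without miR-122-5p regions 5 of 15 were (16.8% of all genes). Ndufa8 gave 77.0, 71.3, 80.0, 89.8 and 103 scaled CPM in controls and 27.0, 23.3, 18.3 and 18.0 in KO. The groups were far apart (log2 -1.96, SE 0.22, adjusted p = 3.3e-05), and Ndufa8 has no miR-122-5p region. Most of its level lay in a coding region at chromosome 2, 36039788 to 36039857, with a miR-22 match, which fell from 69.8 ± 12.8 to 11.9 ± 5.12. Ndufa10 gave 65.8, 64.2, 70.6, 64.8 and 79.8 in controls and 14.4, 26.9, 18.3 and 16.0 in KO (log2 -1.93, SE 0.24, adjusted p = 6.6e-05), again without overlap. Its intronic miR-122-5p 7mer region made 11.5% of the control level. In scaled CPM the difference was 3.65-fold with that region and 3.29-fold without it. The log2 difference without it, on the scale of the second fit, was -2.05. A coding region of Ndufa10 with miR-148 and miR-130 matches (chromosome 1, 92470932 to 92471001) fell from 27.4 ± 9.01 to 2.59 ± 2.51.

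Ndufb7, the accessory subunit with the most counts, is a contrast. Its values were 200.2, 209, 258, 198 and 245 scaled CPM in controls and 200.5, 183, 126 and 172 in KO, so that KO 1 lay within the control range. Ndufb7 has no miR-122-5p region, so its counts were the same in both fits. It did not pass with all regions (log2 -0.34, adjusted p = 0.13). Without miR-122-5p regions it was lower (log2 -0.61, adjusted p = 0.020), a call lost without control 3, 4 or 5 or KO 3 (adjusted p of 0.0545 to 0.0891) and with library totals. Nearly all its counts came from a coding region at chromosome 8, 83570866 to 83570935, with a let-7 8mer match. Ndufa12 had 16.8, 16.6, 10.3, 22.4 and 16.2 in controls and 2.70, 1.79, 4.15 and 10.02 in KO (log2 -2.16, adjusted p = 0.0028); 89.9% of its control level lay in a miR-122-5p 7mer region of its 3′ UTR, and too few counts remained to test it without that region. Ndufb9, Ndufb10 and Ndufa5 were the other accessory subunits that fell, by 1.01, 1.28 and 0.99. The 10 accessory subunits that did not pass had log2 differences of -0.85 to -0.0047.

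In complex II, succinate dehydrogenase, Sdha and Sdhd were lower and Sdhb and Sdhc did not pass. Sdha, the flavoprotein subunit that oxidises succinate, gave 479, 539.5, 510.3, 542 and 508 scaled CPM in controls and 214, 237, 193 and 256 in KO. The controls were tight and every KO value was under the lowest of them (log2 -1.22, SE 0.15, adjusted p = 6.9e-05). Sdhd, a membrane anchor, gave 130.2, 190.1, 144, 139 and 102 in controls and 91.7, 72.6, 41.5 and 40.1 in KO (log2 -1.02, SE 0.24, adjusted p = 0.0039). It has no miR-122-5p region, and both of its tested coding regions fell, by 1.04 and 1.01 on the log2 scale. Sdhc, the other anchor, varied widely among controls, with 181, 280.4, 120.5, 99.8 and 91.6 against 102, 105, 96.3 and 60.1 in KO. Its groups overlapped (log2 -0.41, adjusted p = 0.27). Sdhb, the iron-sulfur subunit, was at 22.0 ± 3.75 and 15.2 ± 4.67.

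In complex III, the cytochrome bc1 complex, the large core proteins were lower and the catalytic iron-sulfur protein was not. Uqcrc1, core protein 1, gave 491, 511, 461, 345 and 394 scaled CPM in controls and 147, 168, 165 and 138 in KO (log2 -1.41, SE 0.17, adjusted p = 4.8e-05). Uqcrc2, core protein 2, gave 274, 347, 209, 209 and 159.5 in controls and 54.8, 38.5, 64.7 and 38.1 in KO (log2 -2.08, SE 0.24, adjusted p = 4.1e-05). Neither gene's groups overlapped. Uqcrc2 has no miR-122-5p match but has miR-122-5p-B matches in a 3′ UTR region (chromosome 7, 120659197 to 120659266, which also lies over Pdzd9) that fell from 114.9 ± 41.8 to 9.10 ± 3.96, and in a coding region. With these left out Uqcrc2 still fell, by 1.32. Uqcrh, the hinge subunit, fell from 18.3 ± 5.53 to 6.68 ± 2.44 (log2 -1.57, adjusted p = 0.0059). Uqcrfs1, the Rieske iron-sulfur protein, gave 7, 28.5, 20.7, 9.15 and 20.7 in controls and 18.9, 17.9, 17.4 and 36.1 in KO, overlapping values that did not pass (log2 0.42, adjusted p = 0.48). Uqcr10, Uqcr11 and Uqcrq did not pass either. Uqcr10 held an intronic miR-122-5p-B region with 53 counts over the controls and 1 over the KO libraries, a ratio of 49.9 (95% interval 8.58 to 2008, exact Clopper-Pearson, counting error only).

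In complex IV, cytochrome c oxidase, 5 of the 7 tested subunits were lower (23.3% of all genes). Cox4i1, the ubiquitous form of subunit 4, gave 33.6, 52.3, 73.1, 50.7 and 54.7 scaled CPM in controls and 23.4, 9.85, 9.13 and 10.02 in KO (log2 -1.90, SE 0.33, adjusted p = 0.00066). Of its control level 87.3% lay in a 3′ UTR region with a miR-122-5p 6mer match (chromosome 8, 120674105 to 120674174), and what remained could not be tested. Cox5b, a matrix-side subunit, has no miR-122-5p region. It gave 120.4, 97.4, 104, 127 and 127 in controls and 65.6, 69.0, 58.1 and 92.2 in KO, all below the controls (log2 -0.78, SE 0.18, adjusted p = 0.0043). Cox5a gave 161, 174, 143, 145 and 148 in controls and 98.9, 81.5, 101 and 74.1 in KO (log2 -0.73, SE 0.16, adjusted p = 0.0030). Its miR-122-5p 7mer region in the coding sequence (chromosome 9, 57531710 to 57531779) fell from 53.3 ± 12.3 to 2.64 ± 1.94. Without that region Cox5a was at 101 and 86.3, a small, 1.17-fold difference in scaled CPM. It passed on the scale of the second fit (log2 -0.47, adjusted p = 0.047). The call was lost when any of the 9 libraries was left out (adjusted p of 0.0537 to 0.215).

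Several subunits of complex IV exist as a form of liver and most tissues and a form of heart, muscle or other tissues. Cox8a, the widespread form of subunit 8, gave 116, 106.95, 155, 131 and 78.3 scaled CPM in controls and 62.0, 37.6, 35.7 and 86.2 in KO. It fell by 1.06 on the log2 scale (SE 0.29, adjusted p = 0.011), with KO 4 above control 5, and the call was lost without control 4 (adjusted p = 0.068). Cox7a2, the widespread form of subunit 7a, gave 42.0, 16.6, 42.2, 22.4 and 34.0 and then 8.99, 6.27, 4.98 and 18.0 (log2 -1.79, adjusted p = 0.0058). Its counts lay mostly in a 5′ UTR region with a miR-122-3p match (chromosome 9, 79759664 to 79759733, also over Gm51685), at 26.5 ± 11.6 in controls and 1.33 ± 1.57 in KO. Cox6a1, the liver form of subunit 6a, did not pass at 33.5 ± 8.55 and 44.9 ± 11.2 (log2 0.30; -0.021 with TMM computed on rows lacking a miR-122-5p match). Ndufa4, counted as a complex IV subunit, was close to level at 39.2 ± 2.17 and 36.8 ± 7.59 (log2 -0.21, adjusted p = 0.47). Cox6b1, the widespread form of subunit 6b, was barely counted, as were Cox6b2, Cox7a1 and Ndufa4l2, with group means of 0.618 to 3.25 scaled CPM, and no count of Cox4i2, Cox6a2 or Cox8b lay in these regions.

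In complex V, ATP synthase, 5 of 12 tested subunits were lower (23.3% of all genes). Without miR-122-5p regions 8 of 12 were lower (16.8% of all genes). Atp5d, Atp5e, Atp5f1 and Atp5o, called only in the second fit, have no miR-122-5p region, and their counts were the same in both. Atp5a1 gave 1375, 2025, 1469.7, 1666 and 1845 scaled CPM in controls and 205, 133, 136 and 194 in KO. This 10.02-fold difference (log2 -3.31, SE 0.22, adjusted p = 8e-07) was the largest fall of any tested member, narrowly ahead of Atp5g3. A coding region with a miR-122-5p 7mer match made 88.1% of the control level, 1481 ± 258, and was at 66.6 ± 28.7 in KO. The rest of Atp5a1 fell too, from 195.4 ± 28.5 to 100.65 ± 24.8, a 1.94-fold difference in scaled CPM. On the scale of the second fit its log2 difference was -1.30 (adjusted p = 0.00033). Atp5g3 gave 1673, 1766, 1676, 1688 and 1956 in controls and 216, 172, 161 and 158 in KO (9.91-fold, log2 -3.28, SE 0.18, adjusted p = 2.8e-07). It has no match listed as miR-122-5p. Of its control level 83.1% lay in a 3′ UTR region (chromosome 2, 73908493 to 73908562) with a miR-122-5p-B match, at 1447 ± 119 in controls and 49.2 ± 17.7 in KO (log2 -4.80, SE 0.30, adjusted p = 1.3e-08). Without that region Atp5g3 still fell, by 1.41 on the log2 scale (adjusted p = 9.5e-05), and its 5′ UTR region with no listed match (73910982 to 73911051) fell from 93.9 ± 46.5 to 10.1 ± 2.94. Atp5g1 and Atp5g2 encode the same mature subunit c: Atp5g1 did not pass at 38.2 ± 10.5 and 28.0 ± 4.92, and Atp5g2 had too few counts. The sources used here do not say how fragments matching near-identical copies were assigned, so values of this family are uncertain.

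Atp5c1, the gamma subunit that turns inside the head, gave 270.2, 378, 255, 286 and 238 in controls and 109, 70.8, 96.3 and 66.1 in KO (log2 -1.63, SE 0.19, adjusted p = 4.9e-05). Most of this difference lay in its matched region. A coding region with a miR-122-5p 6mer match (chromosome 2, 10064184 to 10064253) made 80.2% of the control level and fell from 230.3 ± 55.2 to 39.6 ± 10.3. Without miR-122-5p regions Atp5c1 was at 51.3 and 45.0, a 1.14-fold difference in scaled CPM. It did not pass on the scale of the second fit (log2 -0.45, adjusted p = 0.15). Atp5j2 showed the same order, with log2 -1.26 (adjusted p = 0.0018) in full and -0.59 (adjusted p = 0.18) without its 6mer region. Atp5b, the catalytic beta subunit, fell from 171 ± 19.1 to 119 ± 12.9 (log2 -0.52, adjusted p = 0.019).

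Atp5f1, a subunit of the peripheral stalk, gave 123, 164, 133, 114 and 121 in controls and 89.0, 106.6, 110.4 and 102 in KO. Neither Atp5f1 nor Atp5o has a miR-122-5p region, so their counts were the same in both fits. The Atp5f1 groups did not overlap, but it passed only without miR-122-5p regions (log2 -0.33, adjusted p = 0.15, and log2 -0.59, adjusted p = 0.020). Atp5o, the stalk subunit OSCP, gave 64.4, 95.1, 78.3, 64.8 and 88.6 in controls and 62.9, 47.5, 53.1 and 72.1 in KO, and also passed only in that fit (log2 -0.38, adjusted p = 0.16, and log2 -0.65, adjusted p = 0.033). For Atp5o 2 of its 5 regions lay outside the gene, over Cryzl1 and Gm10785, and held 2.22% of its control and 13.0% of its KO counts; the other 3 summed to 76.0 in controls and 49.5 in KO. The Atp5f1 call was lost without control 3 or 4 or KO 1 (adjusted p of 0.058 to 0.17), and the Atp5o call without controls 2 to 5 or KO 1 to 3 (adjusted p of 0.053 to 0.14); both were lost with library totals. Atp5j did not pass in either fit, at 53.9 ± 7.13 and 47.1 ± 7.53.

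Among the 10 assembly factors and other genes caught by the name rule, 2 of 5 tested were lower (23.3% of all genes). Sdhaf1, which helps load iron-sulfur clusters into complex II, gave 30.8, 40.4, 17.2, 19.1 and 29.5 in controls and 5.39, 4.48, 3.32 and 12.02 in KO (log2 -2.16, SE 0.45, adjusted p = 0.0022). Nearly all of it lay in 3′ UTR regions with miR-122-5p matches. Atp5s was the other, at 20.2 ± 5.44 and 8.10 ± 0.804. Sdhaf2, which helps attach the flavin to Sdha, had every KO value above every control, at 11.6 ± 2.19 and 17.4 ± 2.15, but did not pass (log2 0.46, adjusted p = 0.23). Without miR-122-5p regions 0 of the 5 tested passed by edgeR or DESeq2, and 1 was lower at an unadjusted p under 0.05.

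**Figure D3:**
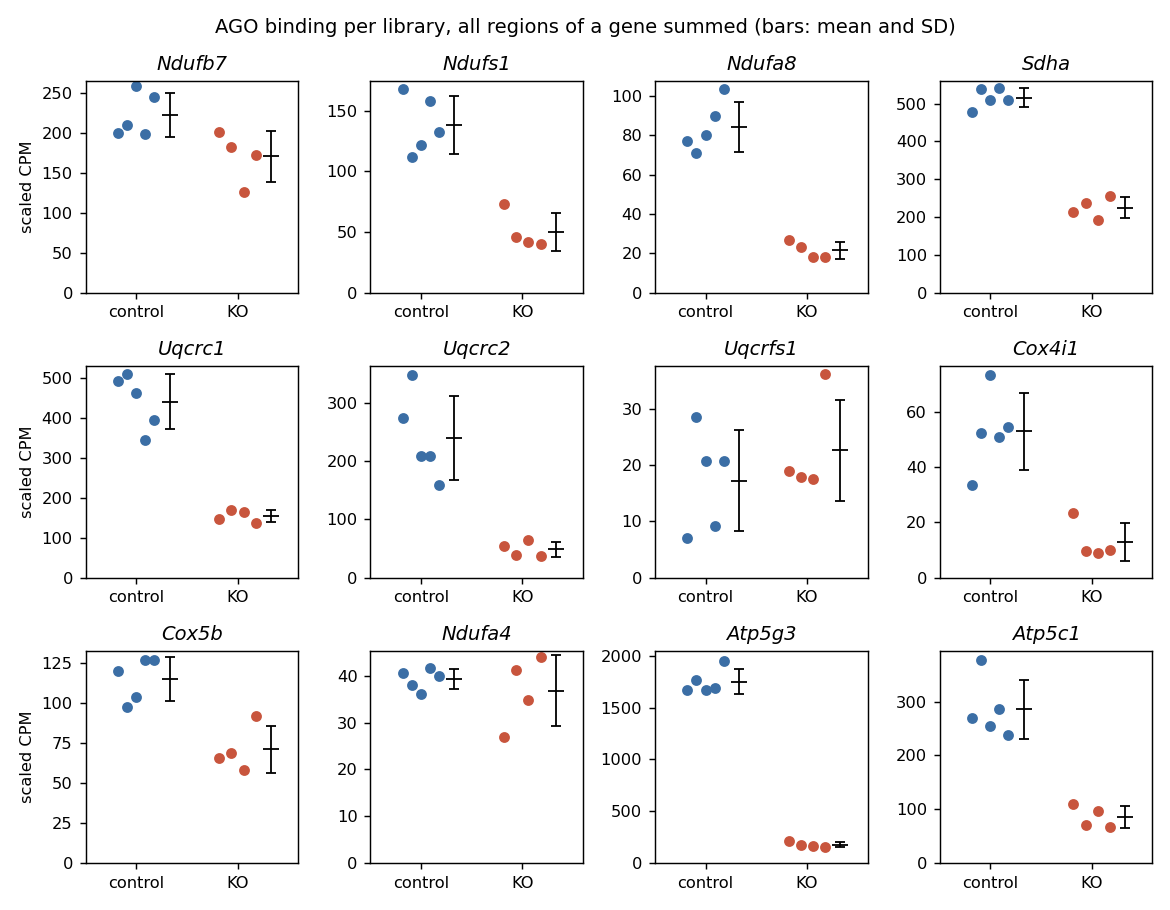
Scaled CPM of 12 members in each library, with the mean and SD of 5 controls and 4 KO. Sdha, Uqcrc1, Uqcrc2, Ndufs1, Ndufa8, Cox4i1, Cox5b, Atp5g3 and Atp5c1 separate fully, whereas Ndufb7, Ndufa4 and Uqcrfs1 overlap.

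Counts of whole genes hide where AGO sat, so the regions were tested one at a time. Unlike the genes, the regions were not split by the count filter. Those that reached it through high controls alone could hardly be called higher, and they are in every region count below. Of 98 member regions tested, 45 were lower and 1 was higher (27.6% lower and 17.5% higher of all regions), with a median log2 difference of -0.88 against 0.03 over all regions. The 45 lay in 30 genes; 29 were in coding sequence, 9 in 3′ UTRs, 6 in 5′ UTRs and 1 in an intron. In 48 of the 98 every KO library was below every control and in 2 every KO library was above (25.1% and 14.4% of all regions). The 21 member regions with a miR-122-5p match (classed from 8mer, the longest seed match, to 6mer, the shortest) lay mostly in coding sequence (10) and 3′ UTRs (7), and 11 had enough counts to test. All 11 were lower: the single 8mer, the 6 7mers (median -3.73) and the 4 6mers (median -2.41), where among all regions of these classes 96.7%, 93.1% and 81.7% were lower. 0 were higher in these classes (0.651%, 0.55% and 2.65% of all), by edgeR, by DESeq2 or at an unadjusted p. Of the 6 tested miR-122-5p-B regions 5 were lower and 0 higher (85.4% and 2.38% of all), and of the 3 tested miR-122-3p regions 2 were lower and 0 higher (56.7% and 3.33% of all; for both classes 0 higher by DESeq2 or at an unadjusted p). The member regions with miR-122 matches thus fell about as often as such regions did in other genes.

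Member regions with no miR-122 match of any kind were mostly below 0 too. Of 78 tested, 27 were lower and 1 was higher (12.7% and 21.5% of all such regions), with a median of -0.69 against 0.27. In coding sequence 20 of 52 were lower and 0 higher (19.6% and 9.77% of all; 28 and 0 at an unadjusted p, 20 and 0 by DESeq2), median -0.78 against -0.03. In 3′ UTRs 3 of 16 were lower and 1 higher (7.3% and 31.3%), median -0.08 against 0.54. In 5′ UTRs 4 of 9 were lower and 0 higher (21.7% and 13.3%; also 4 and 0 by DESeq2 and at an unadjusted p), median -0.70 against -0.02. The members' regions lay below the table's in each part of the mRNA, although these are counts over a list chosen by name and no test of the list was made. Of the 27 lower regions 22 carried a match to another listed microRNA and 5 carried none. Of all member regions, tested or not, 17.45% carried no listed match, and of all protein coding regions 16.3%.

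**Figure D4:**
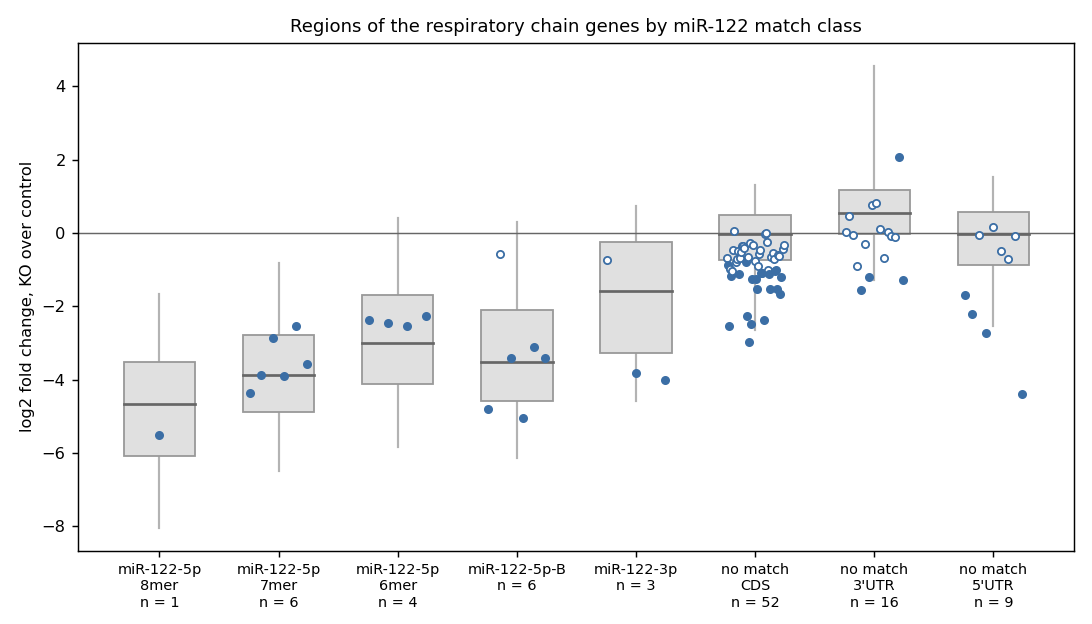
Log2 difference, KO minus control, of tested member regions (points) by miR-122 match and part of the mRNA, over boxes that give the quartiles and whiskers that give the 5th to 95th percentile of all tested regions of the class. Matched member regions lie within the range of other genes, and member regions without a match have a median of -0.69 against 0.27.

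Sdha and Uqcrc1 show both kinds of region within a single mRNA. The Sdha coding region with a miR-122-5p 8mer match (chromosome 13, 74344887 to 74344956) gave 100.8, 83.2, 91.2, 93.9 and 119.7 scaled CPM in controls and 1.80, 0.896, 2.49 and 4.01 in KO, the lowest log2 difference of any tested member region (log2 -5.51, SE 0.38, adjusted p = 1.9e-08). Its 5′ UTR region with a miR-122-3p match (74350144 to 74350213) fell from 61.8 ± 18.2 to 3.37 ± 1.97. Regions with no miR-122 match fell by less. A coding region at 74337463 to 74337532, with miR-148, miR-130 and miR-19 matches, gave 91.0, 123.6, 77.4, 129.7 and 118.2 in controls and 39.6, 37.6, 46.5 and 26.1 in KO (log2 -1.52), and a 3′ UTR region with a let-7 match (74323080 to 74323149) fell by 1.30 on the log2 scale.

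A different Sdha 3′ UTR region, at 74322285 to 74322354 with an 8mer match to miR-27, was the 1 member region called higher. It gave 9.80, 9.51, 11.2, 3.33 and 7.39 scaled CPM in controls and 12.6, 28.7, 33.2 and 94.2 in KO. The groups did not overlap, but KO 1 was close to the controls and KO 4 was far above the rest (log2 2.08, SE 0.61, adjusted p = 0.0098). Without KO 4 the log2 difference was 1.59 (adjusted p = 0.0067), and the call was lost without control 4 (1.37, adjusted p = 0.13) or control 5 (1.89, adjusted p = 0.063). The same region held 1.53% of the Sdha level in controls and 15.4% in KO. KO 4 also had the most neuronal marker counts, and the part of that in this value was not tested.

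The Uqcrc1 coding region with a miR-122-5p 7mer match (chromosome 9, 108946985 to 108947054) gave 169.4, 199.6, 155.8, 80.6 and 85.7 scaled CPM in controls and 18.0, 5.38, 4.98 and 6.01 in KO (log2 -3.58, SE 0.29, adjusted p = 6.4e-08). Controls 4 and 5, the males, were lower than the 3 females here. A coding region with no miR-122 match at 108944099 to 108944168, which held the most Uqcrc1 counts and has let-7 and miR-148 matches, gave 163.8, 126.0, 168.7, 131.4 and 118.2 in controls and 29.7, 76.1, 54.8 and 34.1 in KO. It fell by 1.54 (SE 0.33, adjusted p = 0.00093), less than the matched region. The third called region of Uqcrc1, with matches to the miR-103 and miR-378a families, fell by 1.67.

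**Figure D5:**
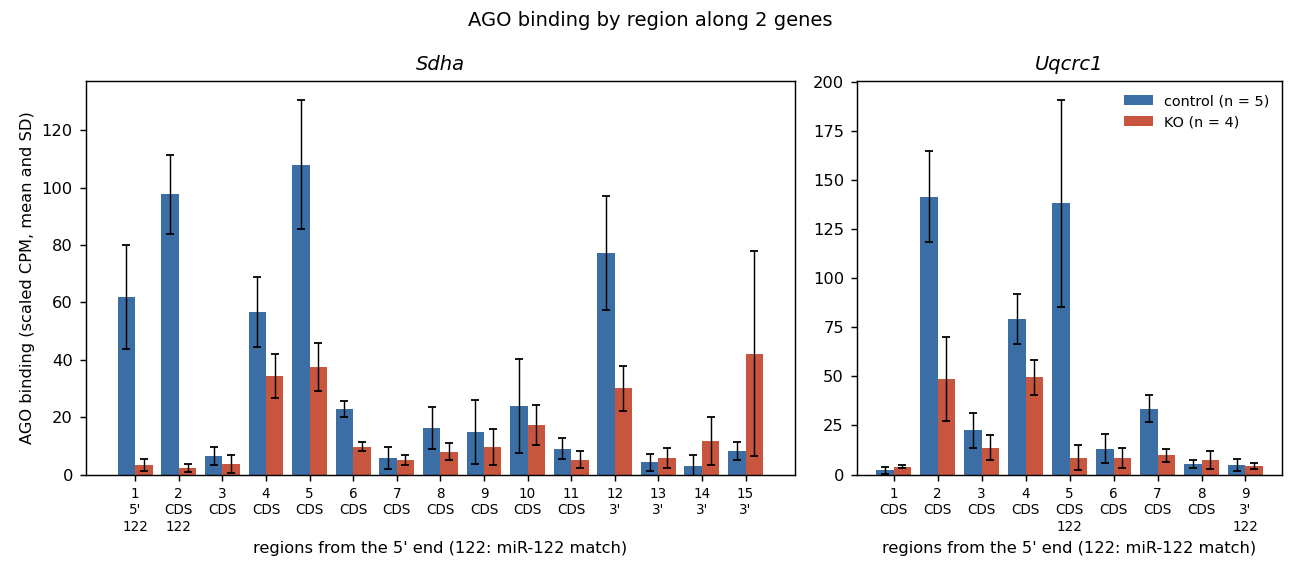
Mean scaled CPM and SD in controls (n = 5) and KO (n = 4) of the 15 Sdha and 9 Uqcrc1 regions, in order from the 5′ end of each mRNA. The matched coding regions drop to 2.30 and 8.59 in KO, other large regions keep part of their level, and the last Sdha regions include the one that is higher.

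The regions without a miR-122 match that fell furthest, beside the Ndufv2 5′ UTR region, were the Ndufa10 coding region (log2 -2.98) and the Atp5g3 5′ UTR region (log2 -2.72). The called ones that fell least were in Cox5b (chromosome 1, 36692438 to 36692507, coding sequence with let-7 and miR-22 matches, log2 -0.78) and in Atp5a1 (coding sequence, no listed match, log2 -0.86). By family, regions with no miR-122 match but a miR-148 match were lower in 6 of 10 tested (21.5% of all protein coding regions of that kind), those with miR-130 in 4 of 6 (17.5%), those with miR-29 in 4 of 6 (12.4%) and those with miR-26 in 3 of 6 (5.45%). The miR-148 and miR-130 regions are partly the same ones, in Ndufa10, Ndufs1, Ndufv1 and Sdha. Regions matching let-7 were lower in 3 of 9 (8.49%), the miR-103 family in 2 of 11 (8.79%) and the miR-15 family in 1 of 8 (9.43%). Those matching miR-27 were lower in 0 of 6 and higher in 1, the Sdha region (10.9% and 23.9%; 2 lower at an unadjusted p, 0 by DESeq2). For the other 7 families 0 member regions were called higher (10.8% for miR-148, 12.9% for miR-130, 15.1% for miR-29, 21.9% for miR-26, 17.3% for let-7, 23.3% for the miR-103 and 22.2% for the miR-15 family), with 1 higher at an unadjusted p and 0 by DESeq2. With so few regions each, these counts describe the members and do not rank the families.

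Coding sequence held the larger part of the AGO counts on these mRNAs. In controls 64.0% ± 1.65 of the member level lay in coding sequence, against 48.1% ± 1.40 over all protein coding genes, and in KO the values were 64.0% ± 4.30 and 36.5% ± 4.00. Leaving out every region with a miR-122 match, the members' coding share was 74.3% ± 0.990 in controls and 65.0% ± 4.33 in KO, and their 3′ UTR share 15.5% ± 1.05 and 25.6% ± 4.77. Over all protein coding genes without such a match the shares moved the same way, from 47.0% ± 1.37 to 36.5% ± 3.95 in coding sequence and from 37.3% ± 1.85 to 47.5% ± 0.980 in the 3′ UTR. The region with the most control counts was in coding sequence in 50 of the 82 genes, in the 3′ UTR in 22, the 5′ UTR in 9 and an intron in 1. That count is not given for other genes. Of all member regions 56.0% were in coding sequence, against 41.9% over all protein coding genes.

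Other genes of mitochondrial respiration, outside the name rule, were listed for comparison. Beside their counts stand the shares of all tested genes, 23.3% lower and 21.9% higher with all regions. Without miR-122-5p regions these shares were 16.8% and 17.1%. Of the 36 listed partners and assembly factors of the chain, 21 were tested, 9 were lower and 1 was higher, with a median of -0.63. Without miR-122-5p regions 18 were tested, of which 5 were lower and 0 higher (6 and 2 at an unadjusted p, 5 and 1 by DESeq2), with a median of -0.17. With all regions the lowest were Sco2 (log2 -4.67) and Cox20 (log2 -3.95), both assembly factors of complex IV. The 1 higher was Coa5 (0.92). Sco2 and Cox20 each have a miR-122-5p region and could not be tested without it. Without miR-122-5p regions Coa5 was at 0.66 and did not pass (edgeR adjusted p = 0.093). Of 18 genes of the citric acid cycle and pyruvate dehydrogenase 9 were lower and 1 higher, median -0.59, and without miR-122-5p regions 6 were lower and 1 higher, median -0.42. Idh3a and Idh3b, subunits of isocitrate dehydrogenase, fell by 3.35 and 2.13, and Pdha1 was higher by 0.72. Idh3a was at 0.53 and Idh3b at -0.72 once their miR-122-5p regions were left out, and neither passed. Of 11 tested regulators of mitochondrial genes 3 were lower, Polrmt, Tfb2m and Nrf1 (log2 -2.03, -1.22 and -1.15), and Yy1 was higher (1.78). Without miR-122-5p regions 2 of 10 were lower and 2 higher, and Nrf1 was one of the higher (1.10).

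The calls for the 7 mitochondrially encoded subunits counted differed between the fits. With all regions 2 were lower, mt-Co3 (log2 -1.85) and mt-Nd4 (-0.73), and 3 were higher, led by mt-Nd4l (5.27) and mt-Nd5 (3.67). Without miR-122-5p regions 0 were lower by edgeR (0 at an unadjusted p and 0 by DESeq2) and 4 were higher, with a median of 1.04; mt-Co3 was then among the higher (1.04) and mt-Nd4 was at 0.09. Their sum was 3245 to 4987 scaled CPM in controls and 4536, 5540, 4845 and 15450 in KO 1 to 4, so that KO 4 stood far above the others. As comparison groups of abundant housekeeping mRNAs, 43 tested cytosolic ribosomal protein genes had 5 lower, 5 higher and a median of 0.25 (4 and 2 of 44, median 0.04, without miR-122-5p regions), and 35 tested proteasome subunit genes had 6 lower, 0 higher (8 and 0 at an unadjusted p, 5 and 0 by DESeq2) and a median of -0.35. Without miR-122-5p regions 8 of 34 proteasome genes were lower and 0 higher (10 and 0 at an unadjusted p, 7 and 0 by DESeq2), with a median of -0.33. Over all tested genes 23.3% were lower and 21.9% higher with all regions, and 16.8% and 17.1% without miR-122-5p regions.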

How the data were processed

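AGO CLIP-seq was measured in liver of 5 control and 4 KO mice. The authors used Bowtie2 and the build mm10, per the submitters' processing notes; versions, the peak caller, duplicate handling and the counting rule are not stated there. The deposited table gives raw counts per region and library, 1 row per region and seed match, per the file headers; 143524 rows were reduced to 92645 unique regions. Its phyloP conservation score, a deposited value, was read but is not reported. Counts without a gene name, 11.0% of the total, stayed out of the gene sums.

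Counts were summed per gene over the whole table, with all regions and without those matching miR-122-5p. Each sum and each region was tested with edgeR 4.0.16 (quasi-likelihood, TMM, filterByExpr, genotype and sex as terms, all 9 libraries, Benjamini-Hochberg over all rows tested, threshold 0.05) in R 4.3.3, and only member rows are printed. The script was checked on simulated counts. The p-values set the difference between genotypes against the spread between mice of a genotype. Members and gene lists were chosen with earlier results of these data known, so the list itself was not tested. Each named gene met a rule: the 3 subunits per complex with the most counts, the 5 lowest and 5 highest called without miR-122-5p regions, those with a tested miR-122-5p 7mer or 8mer region, and the tissue-form pairs; other genes are given as the remaining called members, and a few that did not pass were chosen after their values were seen. Of other lists the 2 lowest and 2 highest called were named. Alternatives were other scalings, DESeq2 1.42.0, no filter, genotype alone, the replicate number as a block, leaving out each library, parts of the mRNA, and other definitions of a miR-122 region.

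Replicate pairs of a group differed by 2.00 to 6.43 times the sampling noise (chi-square per degree of freedom), so no library was a copy of another. Levels of single regions, and of sums with regions left out, use the factors of the gene test on all regions. Their log2 differences use the factors of their own fits. Of the 298 regions 296 lay in the named gene and 13 also lay over another gene. All 11 microRNA sequences sought were found in RefSeq. The values of 1 member are not reported here on their own.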

Additional observations from a re-analysis of the deposited data

Results flagged for a closer look

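In 62 groups of 4 or 5 libraries of the named genes, 2 held a library far from the others of its group; by chance about 1 in 20 groups is expected to. Uqcrfs1 stood at 36.07 scaled CPM in KO library 4 and at 17.43 to 18.88 in the other KO libraries, a gap of 0.922 of the group's range. Cox4i1 stood at 23.37 in KO library 1 and at 9.13 to 10.02 in the others, a gap of 0.938 of the range, and KO library 1 still lay below every control. The cause was not tested in either case.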

How the results depend on the processing

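With all regions the members called lower numbered 26 to 31 under library totals, upper quartile scaling, DESeq2, no filter, genotype alone or coding and UTR regions only, and 39 when TMM was computed on unmatched rows (those lacking a miR-122-5p match), which moved the median of all genes from 0.07 to -0.24 (2798 lower and 1216 higher of all, from 2056 and 1940). The members' median was -1.11 under that scaling, -0.50 without the filter and -0.52 with 3′ UTR regions alone, where 8 of 23 were lower. Without miR-122-5p regions the median was -0.64 with library totals and -0.65 without the filter. Among regions, 3 were higher with library totals, upper quartile scaling or no filter and 2 with genotype alone, with medians of -0.66, -0.64 and -0.63 for the first 3. Fitted with the replicate block (replicates 1 to 4), 14 members were lower and 1, Uqcrfs1, higher (1312 and 1275 of all 8774 genes). In the block fit without miR-122-5p regions 15 were lower (765 of all 8268). Same-numbered libraries did not deviate together (r of -0.09 to 0.02). Such weak correlations cannot tell whether the numbers pair the mice, so the block fit stands as an alternative. Leaving out 1 library gave 25 to 29 lower and 0 to 1 higher (median -0.93 to -0.72), 19 to 31 lower without miR-122-5p regions, and 38 to 52 regions lower and 0 to 3 higher (median -1.06 to -0.76). Signs turned for genes that had not passed and for Cox5a: with 3′ UTR regions alone Sdhc was at 0.42 and Cox5a at 0.41, with the block Atp5o was at 0.051, and with TMM on unmatched rows Cox6a1 was at -0.021 in full and -0.017 without miR-122-5p regions. Without miR-122-5p regions, leaving out a library put Uqcrfs1 at -0.086 to 0.42 and Cox6a1 at -0.087 to 0.26. Leaving out the miR-122-5p-B and miR-122-3p regions was chosen after seeing the data. Regions with few counts could not be tested, and the cause of each change was not tested.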
